A study of Mus musculus with 18 samples.

Results

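The genes described here are ligands and receptors of axon guidance: the semaphorins of classes 3 to 7 with their plexin and neuropilin receptors, the ephrins and Eph receptors, the Slits and Robo receptors, and the netrins and netrin-Gs with the Dcc and Unc5 receptors. The rule matches gene symbols and uses no measured value, though the gene families were picked with earlier results of these data known, and it found 70 of the 18194 genes on the arrays. Each gene was read at 1 probe set, the one with the highest mean over the 18 arrays. RNA had been amplified linearly with T7 polymerase and hybridised to Affymetrix mouse arrays, 1 array per sample. The 6 groups of 3 arrays were motor neurons of the spinal cord from SOD1 mutant mice, the same neurons from wildtype mice, motor neurons of the facial nucleus in the brainstem from SOD1 mutant mice, the same neurons from wildtype mice, ventral spinal cord tissue from SOD1 mutant mice and ventral spinal cord tissue from wildtype mice. SOD1 codes for a cytosolic superoxide dismutase, and mutations in it cause one inherited form of amyotrophic lateral sclerosis. The SOD1 allele, the strain, the age, the sex and the way the neurons were picked were not given in the sources used here, nor was the meaning of the D60 that the titles carry. No label ties a sample to an animal, and the p-values below therefore speak of the spread among arrays, part or all of which may be technical.

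Growing axons read guidance cues through receptors in the membrane of the growth cone, and the same cue can attract or repel depending on the receptor. Secreted class 3 semaphorins act through neuropilins paired with A-type plexins, Slits through Robo receptors, netrins through Dcc and Unc5 receptors, and ephrins through Eph receptors on contact between cells. Motor neurons use these systems to leave the cord and to choose their muscles, and many of the genes stay active in the adult, where they act on synapses, glia and vessels.

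All levels below are log2(intensity + 16) after quantile normalisation, differences are log2 differences on that scale, and levels under 8.79, the 40th percentile of all genes, count as close to background. Of the 70 genes, 43 were above 8.79 in all 6 groups, 15 in some groups and 12 in none. All 5 Dcc and Unc5 receptors and 10 of the 11 plexins and neuropilins were above it in every group. The 12 genes close to background throughout were Efna4, Epha1, Epha2, Epha6, Epha8, Ephb4, Ntn3, Ntn5, Ntng2, Robo2, Robo3 and Sema3f, and no group difference is reported for them. This does not mean that their groups were alike. Ephb4, for instance, averaged 8.05 in SOD1 tissue and 8.39 in wildtype tissue, and between 5.16 and 5.50 in every neuron group. Among the Robo receptors, Robo1 alone was above background in all groups.

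The neuron labels were checked against 10 motor neuron markers, of which 9 were on the arrays. All 9 had group means above background in the spinal neurons of both genotypes, and all but Mnx1, a transcription factor of spinal motor neurons, in the facial neurons. Mnx1 lay between 11.88 and 12.93 on the 6 spinal neuron arrays and between 4.35 and 6.37 on the 6 facial neuron arrays. The neuron arrays also carried glial signal: the mean level of the oligodendrocyte list was 12.78 to 13.85 on them, against 15.79 to 15.96 on the tissue arrays. The ratio of 3′ to 5′ actin control signal, a measure of how far the amplified RNA reaches towards its 5′ end, averaged 30.7 ± 7.36 in SOD1 spinal neurons, 46.5 ± 9.06 in wildtype spinal neurons, 39.8 ± 17 in SOD1 facial neurons and 67.6 ± 7.44 in wildtype facial neurons (SD, n = 3 each), against 1.64 ± 0.116 in SOD1 tissue and 1.63 ± 0.0577 in wildtype tissue. Neurons and tissue therefore differed in this ratio on every array, and this cannot be told apart from the cell type.

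The comparison of spinal motor neurons with the surrounding ventral cord asks which guidance genes mark the neurons and which the rest of the tissue. In both genotypes the neurons had more of the ligands Slit2, Sema3a and Ntng1 and of the receptor Nrp2, and less of Sema5a, Efnb3, Ntn1 and the B-type plexins. In SOD1 mice 38 of 51 tested genes passed the test (limma, Benjamini-Hochberg adjusted p under 0.05 over all tested genes), 25 higher and 13 lower in neurons. In wildtype mice 30 of 50 passed, 20 higher and 10 lower. Of all tested genes, 68.8% passed in SOD1 mice (42% higher, 26.8% lower) and 58.7% in wildtype mice (35.5% higher, 23.1% lower), so shares of 74.5% and 60% of the guidance genes are near the background and the count itself is no result about them. The neuron and tissue arrays did not overlap for 40 of 51 guidance genes in SOD1 mice and 31 of 50 in wildtype mice, where 72.9% and 67% of all tested genes had separate arrays. In such bulk RNA, fewer cells of a type and less RNA per cell cannot be told apart.

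Both genotypes called 26 of these genes, each in the same direction on arrays that the other comparison did not use, which is 68.4% of the SOD1 calls and 86.7% of the wildtype calls. For all genes those shares were 76.8% and 90.2%. The 12 called in SOD1 mice and not in wildtype were Plxna1, Epha5, Epha7, Ephb6, Efna5, Dcc, Unc5a and Sema4b on the higher side and Efnb2, Sema3e, Sema4a and Sema3c on the lower side. Efna2, Unc5d and Sema3d (higher) and Unc5b (lower) passed in wildtype mice and missed the threshold in SOD1 mice. No difference between genotypes in these contrasts passed its own test, as given further on.

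**Figure D1:**
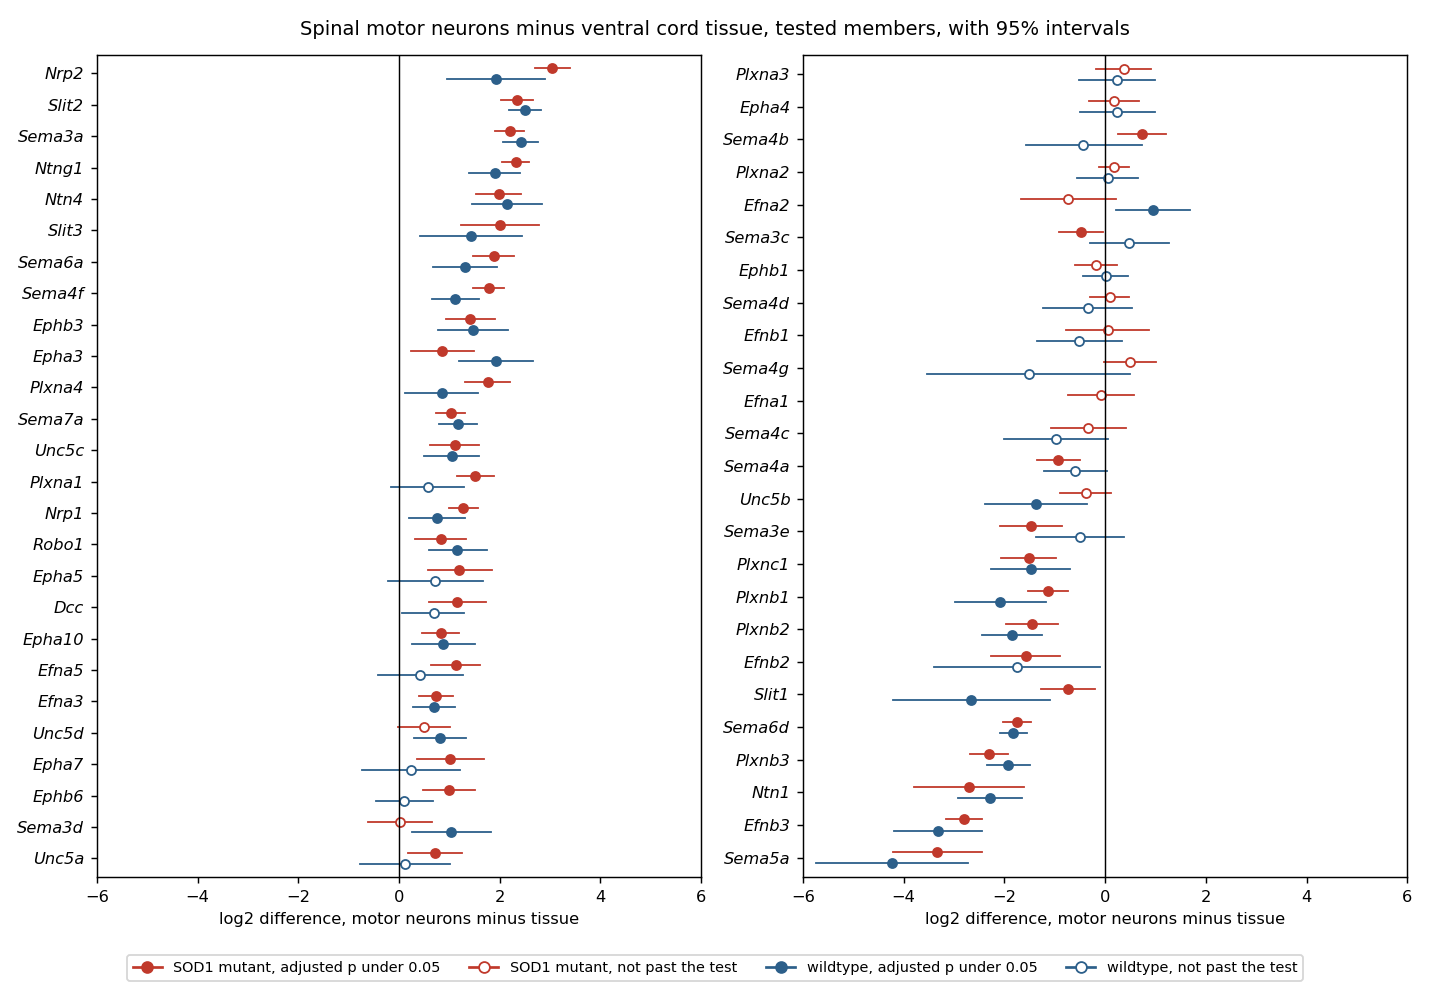
Log2 difference of spinal motor neurons minus ventral cord tissue for each guidance gene that was tested, with 95% intervals from limma; SOD1 mutant in red above wildtype in blue, filled where the adjusted p was under 0.05. Slit2, Sema3a, Ntng1 and Nrp2 lie on the higher side in both genotypes and Sema5a, Efnb3, Ntn1 and the 3 B-type plexins on the lower side.

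Among the secreted ligands, Slit2, a repellent read by Robo receptors, had levels of 14.57, 14.10 and 14.50 in SOD1 spinal neurons, against 12.16, 11.91 and 12.05 in SOD1 tissue. In wildtype mice Slit2 was at 14.52, 14.70 and 14.64 in spinal neurons and at 12.18, 12.08 and 12.07 in tissue. Every neuron array was therefore above every tissue array, and the differences were 2.35 (SE 0.15, adjusted p = 4.83e-07, 5.09-fold) and 2.51 (SE 0.14, adjusted p = 4.78e-06, 5.69-fold). Sema3a, a collapsing factor for growth cones that binds neuropilin 1, was at 13.57, 13.72 and 13.86 in SOD1 spinal neurons and at 11.58, 11.45 and 11.52 in SOD1 tissue. In wildtype mice Sema3a was at 13.94, 13.86 and 14.12 in spinal neurons, with wildtype tissue at 11.52, 11.67 and 11.49. The groups again did not overlap, with 4.59-fold higher Sema3a in SOD1 neurons (2.20, SE 0.13, adjusted p = 3.53e-07) and 5.34-fold in wildtype neurons (2.42, SE 0.16, adjusted p = 8.51e-06). A second probe set of Sema3a, with a mean near background (8.92), gave 0.50 in SOD1 mice and the opposite sign, -0.44, in wildtype mice.

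Netrin-G1, coded by Ntng1, is a membrane-anchored relative of the netrins that binds a partner on dendrites rather than Dcc. Ntng1 was at 13.58, 13.64 and 13.46 in SOD1 spinal neurons and at 11.26, 11.27 and 11.19 in SOD1 tissue (2.32, SE 0.12, adjusted p = 2.11e-07). Wildtype spinal neurons had 13.32, 13.67 and 12.85 of it and wildtype tissue 11.37, 11.39 and 11.39 (1.90, SE 0.22, adjusted p = 0.000129). All neuron arrays were above all tissue arrays, with a wider spread among wildtype neurons than among wildtype tissue samples. Another Ntng1 probe set above background gave 1.64 in SOD1 mice and 1.52 in wildtype mice. Those close to background gave 0.99 and -2.63 in SOD1 mice and 1.40 and -1.94 in wildtype mice. Ntn4, a netrin found in basement membranes, averaged 11.06 ± 0.12 in SOD1 spinal neurons and 9.07 ± 0.07 in SOD1 tissue, a 3.95-fold difference (adjusted p = 1.26e-05). Its wildtype means were 11.06 ± 0.40 in spinal neurons and 8.92 ± 0.28 in tissue (4.43-fold, adjusted p = 0.000394, SD, n = 3), the tissue means being just above background. The other Ntn4 probe set, with a mean close to background (6.18), gave the opposite sign, -2.35 in SOD1 mice and -2.71 in wildtype mice.

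Ntn1 itself, the floor plate cue read by Dcc and Unc5 receptors, went the other way. It was at 8.55, 8.86 and 6.77 in SOD1 spinal neurons and at 10.51, 11.03 and 10.76 in SOD1 tissue (-2.70, SE 0.49, adjusted p = 0.000666). In wildtype mice it was at 8.37, 8.51 and 8.24 in spinal neurons, with wildtype tissue at 10.63, 10.66 and 10.70 (-2.29, SE 0.28, adjusted p = 0.000183). Since both neuron means were close to background, no fold is given. The Slits were split as well: Slit3 was higher in neurons than in tissue, by 2.01 in SOD1 mice (adjusted p = 0.000522) and 1.43 in wildtype mice (adjusted p = 0.0215), from tissue levels close to background. Slit1 was lower, by -0.74 in SOD1 mice (adjusted p = 0.0192) and -2.66 in wildtype mice (adjusted p = 0.00925), and wildtype neuron array 3 with 6.15 stood well under the other wildtype neuron arrays with 9.06 and 8.54. The probe set used had a mean of 9.02. Another Slit1 probe set, with a mean just under background (8.67), gave the opposite sign, 1.23 in SOD1 mice and 0.36 in wildtype mice.

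The transmembrane semaphorins fell into both directions. Sema6d, a class 6 semaphorin that binds plexin A1, was at 14.04, 13.57 and 13.66 in SOD1 spinal neurons and at 15.57, 15.47 and 15.48 in SOD1 tissue. Wildtype spinal neurons had 13.54, 13.58 and 13.62 of Sema6d and wildtype tissue 15.35, 15.43 and 15.44. No neuron array reached the lowest tissue array, and Sema6d fell by 1.75 in SOD1 neurons (adjusted p = 9.88e-07, 3.37-fold) and by 1.83 in wildtype neurons (adjusted p = 8.17e-06, 3.55-fold). The size depended on the processing. Over the alternatives it ran from -1.89 to -0.55 in SOD1 mice and from -1.86 to -0.60 in wildtype mice, past the test in each. Sema5a, a semaphorin with thrombospondin repeats, had 9.30, 8.89 and 7.52 in SOD1 spinal neurons and 11.84, 11.73 and 12.11 in SOD1 tissue (-3.33, SE 0.40, adjusted p = 3.83e-05). In wildtype mice it had 5.81, 8.63 and 8.37 in spinal neurons and 11.95, 11.81 and 11.75 in tissue (-4.24, SE 0.66, adjusted p = 0.000676). The neuron levels were near or under background and scattered widely, while the tissue arrays lay close together.

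Sema4f and Sema6a were higher in neurons. Sema4f, a class 4 transmembrane semaphorin, averaged 13.69 ± 0.21 in SOD1 spinal neurons and 11.90 ± 0.08 in SOD1 tissue (3.45-fold, adjusted p = 1.99e-06), and 12.97 ± 0.36 in wildtype spinal neurons and 11.85 ± 0.11 in wildtype tissue (2.18-fold, adjusted p = 0.00173, SD, n = 3). Sema6a, which boundary cap cells use in chick and mouse embryos to keep motor neuron cell bodies inside the cord, was 3.69-fold higher in SOD1 neurons (1.88, adjusted p = 9.4e-06) and 2.49-fold in wildtype neurons (1.31, adjusted p = 0.0036). Its other probe sets, both close to background, gave -0.96 and -2.12 in SOD1 mice and 0.05 and -2.73 in wildtype mice. Sema3d, a secreted class 3 semaphorin, rose by 1.03 in wildtype neurons (adjusted p = 0.0295), with 0.03 in SOD1 neurons (adjusted p = 0.936). Sema7a is described with the facial neurons.

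Of the ephrins, Efnb3, the midline ligand that EphA4-bearing axons avoid, showed a large difference. Efnb3 was at 11.67, 11.11 and 11.34 in SOD1 spinal neurons and at 14.12, 14.35 and 14.07 in SOD1 tissue. The wildtype levels were 9.96, 11.51 and 11.47 in spinal neurons and, in tissue, 14.06, 14.35 and 14.47. The groups were far apart, with -2.80 in SOD1 mice (SE 0.16, adjusted p = 3.26e-07, 6.98-fold) and -3.32 in wildtype mice (SE 0.38, adjusted p = 0.000128, 9.98-fold), and wildtype neuron array 1 was the lowest. Efna3 went up in neurons of both genotypes, by 0.74 in SOD1 mice (adjusted p = 0.00157) and 0.70 in wildtype mice (adjusted p = 0.0112), and Efna5 by 1.13 in SOD1 mice (adjusted p = 0.00102) with 0.42 in wildtype mice (adjusted p = 0.348). Efna2 rose by 0.95 in wildtype neurons (adjusted p = 0.0305), while its difference in SOD1 mice was -0.74 (adjusted p = 0.145). Another Efna2 probe set, with a mean under background (8.36), gave -0.86 in wildtype mice and -0.47 in SOD1 mice.

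Among the receptors, Nrp2, a co-receptor for class 3 semaphorins and for vascular growth factors, was at 13.60, 14.05 and 13.75 in SOD1 spinal neurons and at 10.63, 10.71 and 10.89 in SOD1 tissue (3.05, SE 0.15, adjusted p = 1.61e-07, 8.3-fold). Wildtype spinal neurons had 11.78, 13.79 and 12.53 and wildtype tissue 10.88, 10.65 and 10.78 (1.93, SE 0.43, adjusted p = 0.00452, 3.81-fold). Wildtype neuron array 2 reached the level of the SOD1 neurons, and the other wildtype neuron arrays lay between them and tissue. Its other probe sets above background gave 1.98 and 0.77 in SOD1 mice and 2.20 and 0.30 in wildtype mice. Nrp1, the receptor of Sema3a, was higher by 1.28 in SOD1 neurons (SE 0.13, adjusted p = 1.17e-05) and by 0.76 in wildtype neurons (SE 0.24, adjusted p = 0.0253).

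Plexins were found on both sides. All 3 B-type plexins were lower in neurons: Plxnb3 fell by 2.31 in SOD1 neurons (adjusted p = 1.49e-06) and by 1.92 in wildtype neurons (adjusted p = 5.27e-05). Plxnb2 fell by 1.45 in SOD1 neurons (adjusted p = 0.000269) and by 1.84 in wildtype neurons (adjusted p = 0.000401). Plxnb1 fell by 1.13 in SOD1 neurons (adjusted p = 0.000277) and by 2.08 in wildtype neurons (adjusted p = 0.00211). Of the 4 A-type plexins, signalling partners of the neuropilins, Plxna4 rose in both genotypes, by 1.76 in SOD1 neurons (adjusted p = 3.14e-05) and, with an adjusted p near the threshold, by 0.85 in wildtype neurons (adjusted p = 0.046). Plxna1 rose by 1.52 in SOD1 neurons (adjusted p = 1.65e-05), with 0.57 in wildtype neurons (adjusted p = 0.157). Plxna2 and Plxna3 did not pass in either genotype, with differences of 0.18 and 0.37 in SOD1 mice and 0.05 and 0.24 in wildtype mice.

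At the probe sets used, no Eph receptor was lower in neurons past the test. Of 8 tested, 6 rose in SOD1 mice (Epha3, Epha5, Epha7, Epha10, Ephb3 and Ephb6) and 3 in wildtype mice (Epha3, Epha10 and Ephb3). For Epha4 the probe set used gave 0.18 in SOD1 mice and 0.24 in wildtype mice. Its other probe sets above background gave -0.14, 0.39 and -1.86 in SOD1 mice and -1.31, -0.67 and -2.81 in wildtype mice. For Epha5 the probe set used gave 1.20 in SOD1 mice, and its other probe sets above background gave -0.17, 0.63 and 1.45. Epha3, an EphA receptor of medial motor neurons in the chick and mouse embryo, had 9.60, 9.67 and 9.43 in SOD1 spinal neurons and 8.47, 8.71 and 8.94 in SOD1 tissue (0.86, adjusted p = 0.0202). In wildtype mice Epha3 was at 10.64, 9.98 and 10.32 in spinal neurons and, in tissue, at 8.51, 8.30 and 8.34 (1.93, adjusted p = 0.000984). The neuron arrays were above the tissue arrays in both genotypes, with tissue close to background. Ephb3 rose by 1.42 in SOD1 neurons (adjusted p = 0.00021) and by 1.48 in wildtype neurons (adjusted p = 0.00312), and Epha10 by 0.83 in SOD1 neurons (adjusted p = 0.00142) and 0.88 in wildtype neurons (adjusted p = 0.0231). Robo1, a Slit receptor, was 1.78-fold higher in SOD1 neurons (adjusted p = 0.00817) and 2.24-fold in wildtype neurons (adjusted p = 0.0038). Of the netrin receptors, Unc5c rose by 1.11 in SOD1 neurons (adjusted p = 0.0013) and by 1.05 in wildtype neurons (adjusted p = 0.00506), although another probe set of Unc5c above background gave -1.03 in SOD1 mice and -0.08 in wildtype mice. Dcc rose by 1.16 in SOD1 neurons (adjusted p = 0.0022), with 0.69 in wildtype neurons (adjusted p = 0.054), but another Dcc probe set above background gave -0.79 in SOD1 mice and -1.56 in wildtype mice. In wildtype neurons Unc5d rose by 0.82 (adjusted p = 0.0129), and Unc5b was lower, at -1.38 (adjusted p = 0.025), against 0.50 and -0.39 in SOD1 neurons, neither past the test.

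**Figure D2:**
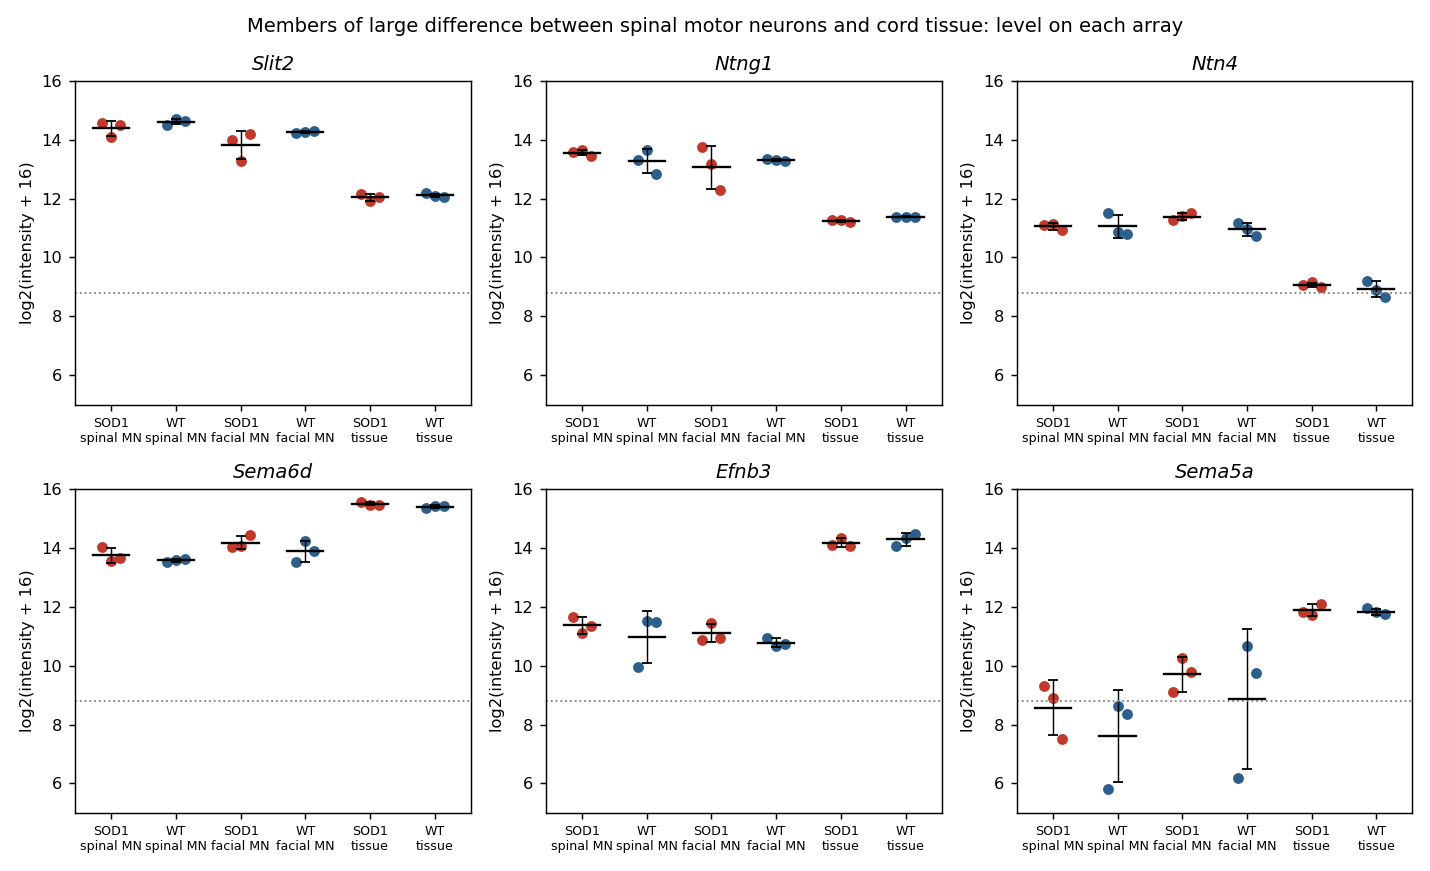
Level on each array of 6 guidance genes with large differences between spinal neurons and tissue; points are arrays (SOD1 mutant red, wildtype blue), bars the mean and SD of 3 arrays, and the dotted line the background level of 8.79. Slit2, Ntng1 and Ntn4 are higher on the neuron arrays, Sema6d and Efnb3 higher on the tissue arrays, and Sema5a is near background in spinal neurons.

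The split between higher and lower genes depended on the scaling. With the deposited values as they stood, 16 genes were higher and 19 lower in SOD1 neurons (45.7% higher, against 65.8% as reported) and 8 were higher and 15 lower in wildtype neurons (34.8%, against 66.7%). The median of all tested genes moved with it, being -0.04 in SOD1 mice and -0.13 in wildtype mice on the deposited values, against 0.24 and 0.22 as reported. At a common median it was 0.74 in SOD1 mice and 0.69 in wildtype mice, with 29 genes higher and 12 lower in SOD1 neurons and 22 higher and 9 lower in wildtype neurons. All genes called as reported kept their direction under both scalings in both genotypes, except Sema3c in SOD1 mice, which was -0.48 as reported (adjusted p = 0.0493) and 0.10 at a common median. The calls themselves held less often: on the deposited values 29 of the 38 SOD1 calls and 18 of the 30 wildtype calls still passed. The SOD1 calls lost there were Dcc, Efna3, Epha3, Epha7, Epha10, Ephb6, Robo1, Sema4b and Unc5a, all on the higher side. The wildtype calls lost there were also all on the higher side, with differences of 0.03 for Plxna4, 0.04 for Unc5d, 0.05 for Efna2, 0.16 for Efna3 and for Sema3d and 0.21 for Epha10, and of 0.42 to 0.62 for Unc5c, Robo1, Nrp1, Sema6a, Ephb3 and Slit3.

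Single arrays mattered for the smaller differences as well. Leaving out 1 wildtype array at a time, Efna2, Plxna4 and Slit3 missed the threshold in 5 of 6 fits, Epha10 and Sema3d in 4, Nrp1 and Unc5b in 3, and Efna3 and Unc5d in 1. Among the SOD1 calls, Sema3c missed it in 4 of 6 such fits, Slit1 in 3, Unc5a and Epha3 in 2, and Sema4b and Slit3 in 1. The wildtype call of Plxna4 was lost in 10 of 17 alternatives in all, and that of Efna2 in 8 of 17.

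Cell type markers moved with this comparison. In SOD1 neurons all 10 tested astrocyte genes, all 9 oligodendrocyte genes, all 4 oligodendrocyte precursor genes, all 4 endothelial genes, all 7 mural and fibroblast genes and the 1 Schwann cell gene were lower than in tissue past the test. Past the test, microglia genes were lower in 6 of 10 and higher in 1, and interneuron genes lower in 3 of 8 and higher in 1. Wildtype neurons had 9 of 10 astrocyte, 9 of 9 oligodendrocyte, 4 of 5 precursor, 3 of 4 endothelial, 6 of 7 mural and fibroblast, 1 of 1 Schwann, 6 of 10 microglia and 7 of 8 interneuron genes lower past the test. The summed intensity of the 9 oligodendrocyte genes was 194000 to 228000 in SOD1 neurons and 605000 to 626000 in SOD1 tissue, and 203000 to 310000 in wildtype neurons and 585000 to 626000 in wildtype tissue. Of 8 tested motor neuron markers, 7 were higher past the test in SOD1 neurons and 6 in wildtype neurons. The part of these cell types in the guidance gene differences was not tested.

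Further genes of the pathway were taken from a list of 32 other cues and receptors and 52 effectors, of which 48 effectors were on the arrays. Of the cues and receptors, 27 were tested, and 10 rose and 13 fell in neurons past the test in each genotype. Their median difference was -0.31 in SOD1 mice and -0.85 in wildtype mice, against 0.24 and 0.22 for all tested genes. Of all tested genes 68.8% passed in SOD1 mice and 58.7% in wildtype mice. Those of smallest p in SOD1 mice were Shh (3.25), Ret (1.91) and Gfra1 (2.27), the last 2 forming the receptor for the neurotrophic factor GDNF. Of 47 tested effectors, 17 rose and 19 fell past the test in SOD1 neurons (median -0.20) and 12 rose and 21 fell in wildtype neurons (median -0.57). The Rac inhibitor Chn1, which acts downstream of EphA4, was lower at -3.35 in SOD1 neurons (adjusted p = 8.06e-08) and -3.20 in wildtype neurons (adjusted p = 2.48e-06). Itgb1, the integrin chain that Sema7a can engage, fell by 2.81 in SOD1 neurons (adjusted p = 4.77e-07). Farp2, an adaptor of plexin A signalling, rose by 3.02 in wildtype neurons (adjusted p = 2.84e-05).

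Spinal and facial motor neurons were then compared, 2 amplified neuron populations from different sites. Both genotypes had more Sema7a and Sema3a in spinal neurons and more Plxnc1 and Sema3c in facial neurons. In SOD1 mice 6 of 48 tested guidance genes passed, 3 higher and 3 lower in spinal neurons, where 7.3% of all tested genes passed (4.09% higher, 3.22% lower). In wildtype mice 4 of 47 passed, 2 higher and 2 lower, where 3.97% of all genes passed (2.13% higher, 1.83% lower). These shares of 12.5% and 8.51% rest on few genes, and no test set them against the background. Spinal and facial arrays did not overlap for 21 of the 48 genes in SOD1 mice and 15 of the 47 in wildtype mice, against 28.4% and 28.5% of all tested genes. With array medians made equal, 7 guidance genes passed in SOD1 mice, 2 of them higher (28.6% higher, against 50% as reported), and each gene called as reported kept its direction under both other scalings. All 4 wildtype calls were also SOD1 calls, in the same direction and on separate arrays, which is 66.7% of the SOD1 calls and 100% of the wildtype calls. Over all genes the shared calls made up 25.8% of the SOD1 calls and 47.3% of the wildtype calls. These comparisons use the same spinal neuron arrays as the comparison with tissue.

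The promoters of these 4 genes, from 250 bases before to 50 after the transcription start in RefSeq (GRCm38.p6), are shown because the genes differed between the neuron pools in both genotypes; capitals mark GC boxes (GGGCGG, or CCGCCC on the other strand). They lie at chr9:57939862-57940161 on the + strand (Sema7a), chr5:13396534-13396833 on the + strand (Sema3a), chr5:17574566-17574865 on the + strand (Sema3c) and chr10:94944796-94945095 on the - strand (Plxnc1).
Sema7a: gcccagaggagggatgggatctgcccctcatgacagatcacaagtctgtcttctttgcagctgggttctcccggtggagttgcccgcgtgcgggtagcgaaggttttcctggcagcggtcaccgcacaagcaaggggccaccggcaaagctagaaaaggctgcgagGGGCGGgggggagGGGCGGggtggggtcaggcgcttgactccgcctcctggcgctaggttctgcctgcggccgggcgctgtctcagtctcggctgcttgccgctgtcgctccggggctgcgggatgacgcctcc
Sema3a: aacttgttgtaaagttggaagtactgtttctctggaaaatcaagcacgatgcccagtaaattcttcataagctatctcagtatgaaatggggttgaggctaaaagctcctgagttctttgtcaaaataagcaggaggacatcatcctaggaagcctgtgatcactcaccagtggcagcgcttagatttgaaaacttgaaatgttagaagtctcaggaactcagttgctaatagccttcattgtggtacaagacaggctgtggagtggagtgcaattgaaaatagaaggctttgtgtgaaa
Sema3c: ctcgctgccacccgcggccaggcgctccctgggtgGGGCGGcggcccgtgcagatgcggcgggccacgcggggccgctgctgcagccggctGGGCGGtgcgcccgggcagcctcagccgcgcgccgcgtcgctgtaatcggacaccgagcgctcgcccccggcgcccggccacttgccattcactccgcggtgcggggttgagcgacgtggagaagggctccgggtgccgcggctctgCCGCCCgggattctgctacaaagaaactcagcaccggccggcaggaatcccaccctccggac
Plxnc1: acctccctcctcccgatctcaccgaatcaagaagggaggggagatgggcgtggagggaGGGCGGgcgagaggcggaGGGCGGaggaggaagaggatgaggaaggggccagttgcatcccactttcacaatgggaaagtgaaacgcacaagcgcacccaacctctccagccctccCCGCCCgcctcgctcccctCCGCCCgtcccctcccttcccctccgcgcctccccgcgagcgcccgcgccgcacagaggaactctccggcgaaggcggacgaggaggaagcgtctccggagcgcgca
Promoters were found for 60 of the 70 guidance genes, 76 in all. GC boxes stood in 71.1% of them and in 35.7% of 32851 mouse promoters, with 2 in the Sema7a window, 3 in that of Sema3c, 4 in that of Plxnc1 and 0 in that of Sema3a. The homeodomain core TAATTA, searched because motor pools are specified by homeodomain factors and identical on both strands, was in 3.95% of the guidance promoters and 5.29% of all promoters. A TATA box (TATAAA, either strand) was in 2.63% of the guidance promoters and 13.6% of all promoters, and none of the 4 windows held TAATTA or TATAAA.

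Sema7a, a semaphorin anchored to the membrane by a lipid and read by plexin C1 and by integrins, had 14.16, 13.90 and 14.31 in SOD1 spinal neurons and 12.89, 12.36 and 13.36 in SOD1 facial neurons. In wildtype mice it had 14.31, 14.74 and 14.19 in spinal neurons and 12.02, 12.40 and 12.30 in facial neurons. Each spinal array was above each facial array of either genotype. Sema7a was 2.38-fold higher in SOD1 spinal neurons (1.25, SE 0.23, adjusted p = 0.00808) and 4.5-fold in wildtype spinal neurons (2.17, SE 0.20, adjusted p = 0.00119). Ventral cord tissue stood between the neuron pools in wildtype mice, at 13.20, 13.32 and 13.20, while SOD1 tissue at 13.15, 13.16 and 12.96 overlapped SOD1 facial neurons. Spinal neurons were above tissue by 1.03 in SOD1 mice (SE 0.13, adjusted p = 5.69e-05) and by 1.17 in wildtype mice (SE 0.17, adjusted p = 0.00044), and facial neurons were not tested against tissue. The other Sema7a probe set had a mean of 7.40, close to background, and gave 1.91 in SOD1 mice and 1.26 in wildtype mice between spinal and facial neurons, while between spinal neurons and tissue it gave -0.60 in SOD1 mice and -2.0 in wildtype mice, opposite in sign to the values above.

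Plxnc1, the plexin that binds Sema7a, had the opposite order. It was at 9.48, 9.03 and 9.07 in SOD1 spinal neurons and at 10.99, 11.10 and 10.92 in SOD1 facial neurons (-1.81, SE 0.29, adjusted p = 0.00401, 3.51-fold). In wildtype mice Plxnc1 was at 8.41, 8.99 and 9.06 in spinal neurons and, in facial neurons, at 10.83, 11.41 and 11.09 (-2.29, SE 0.35, adjusted p = 0.0119), with no fold given since the spinal mean was at the background level. The spinal arrays of both genotypes lay between 8.41 and 9.48, around the background level, and every facial array was above them. Against tissue, Plxnc1 in spinal neurons was lower too, by -1.52 in SOD1 mice (adjusted p = 0.000303) and by -1.48 in wildtype mice (adjusted p = 0.00597). Another Plxnc1 probe set, with a mean near background (8.82), gave -1.38 between spinal and facial neurons in SOD1 mice and -0.24 in wildtype mice.

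The secreted semaphorins Sema3a and Sema3c differed in opposite directions. Sema3a in facial neurons was at 13.11, 13.21 and 12.83 in SOD1 mice and at 13.10, 12.83 and 12.84 in wildtype mice, below all spinal levels given above. Its difference was 0.67 in SOD1 mice (SE 0.17, adjusted p = 0.0339) and 1.05 in wildtype mice (SE 0.16, adjusted p = 0.0122), and the second probe set gave 1.23 in SOD1 mice and -0.47 in wildtype mice. The SOD1 call of Sema3a was not stable: its adjusted p was above 0.05 without any 1 of the 3 spinal arrays or without facial array 1 or 3, with 0.13 the highest. It was lost too with array medians made equal (adjusted p = 0.0664) and with the replicate number as a block (adjusted p = 0.0619), 8 of 19 alternatives in all. Sema3c, a ligand of both neuropilins, was at 11.76, 12.24 and 11.51 in SOD1 spinal neurons and at 13.70, 14.50 and 14.09 in SOD1 facial neurons (-2.26, SE 0.24, adjusted p = 0.000254, 4.79-fold). Wildtype spinal neurons had 13.19, 11.72 and 12.73 and wildtype facial neurons 14.53, 14.24 and 14.33 (-1.82, SE 0.32, adjusted p = 0.0204, 3.53-fold). Facial arrays were above spinal arrays in each genotype, and the wildtype spinal arrays were the most scattered.

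**Figure D3:**
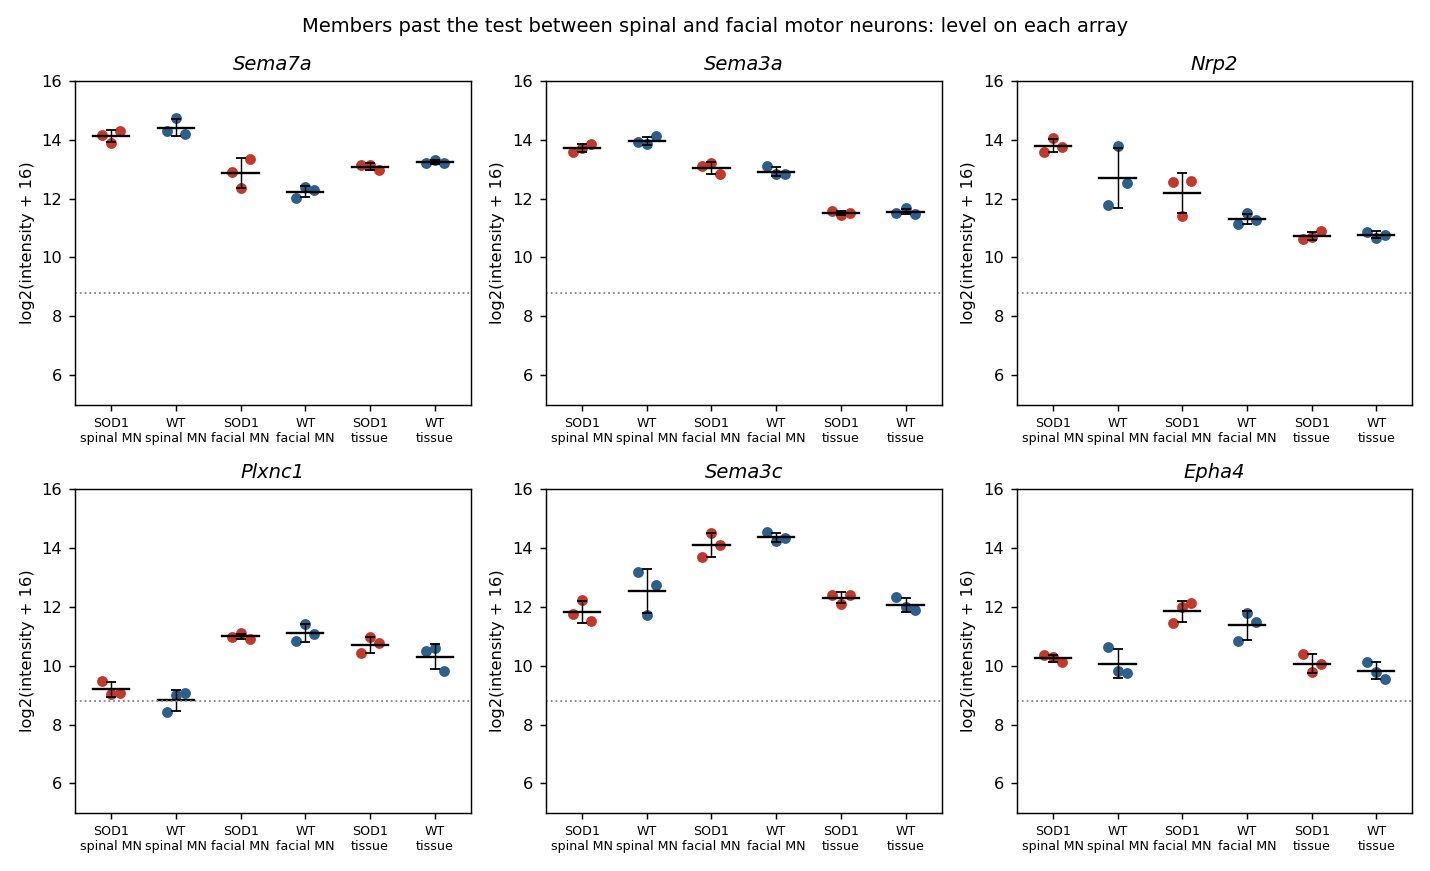
Level on each array of the 6 guidance genes that passed the test between spinal and facial motor neurons in at least 1 genotype; points are arrays (SOD1 mutant red, wildtype blue), bars the mean and SD of 3 arrays, the dotted line the background level of 8.79. Sema7a, Sema3a and Nrp2 have higher means in spinal neurons, and Plxnc1, Sema3c and Epha4 in facial neurons.

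In SOD1 mice, 2 receptors passed as well. Nrp2 was at the levels given above in spinal neurons and at 12.57, 11.41 and 12.61 in facial neurons (1.60, SE 0.28, adjusted p = 0.00661). In wildtype mice Nrp2 in facial neurons was at 11.14, 11.50 and 11.28, below each wildtype spinal array, with a difference of 1.39 that missed the threshold (SE 0.43, adjusted p = 0.108). Epha4, a receptor that steers limb motor axons and binds ephrins of both classes, was at 10.35, 10.28 and 10.12 in SOD1 spinal neurons and between 11.45 and 12.12 in SOD1 facial neurons (-1.61, SE 0.25, adjusted p = 0.00308). Wildtype spinal neurons had 10.64, 9.82 and 9.74 and wildtype facial neurons 10.84, 11.80 and 11.49 (-1.31, SE 0.36, adjusted p = 0.0764). Its arrays did not overlap in either genotype, and 3 other Epha4 probe sets above background gave -1.41, -2.07 and -0.93 in SOD1 mice and -2.40, -2.53 and -1.12 in wildtype mice.

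Several other guidance genes had differences that missed the threshold. Slit3 differed by -0.97 in SOD1 mice (adjusted p = 0.0535) and by -1.46 in wildtype mice (adjusted p = 0.0735), and Nrp1 by -0.24 in SOD1 mice (adjusted p = 0.356) and -0.98 in wildtype mice (adjusted p = 0.0617). For Slit2 the differences were 0.56 (95% interval 0.08 to 1.04) in SOD1 mice and 0.35 (0.07 to 0.64) in wildtype mice, with adjusted p of 0.151 and 0.152. Its other probe sets above background gave the opposite sign, -0.01 and -0.11 in SOD1 mice and -1.43 and -0.21 in wildtype mice. Over the genes tested in both genotypes, 30 of 47 had the same sign in each, 63.8%, against 67.1% of all genes.

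**Figure D4:**
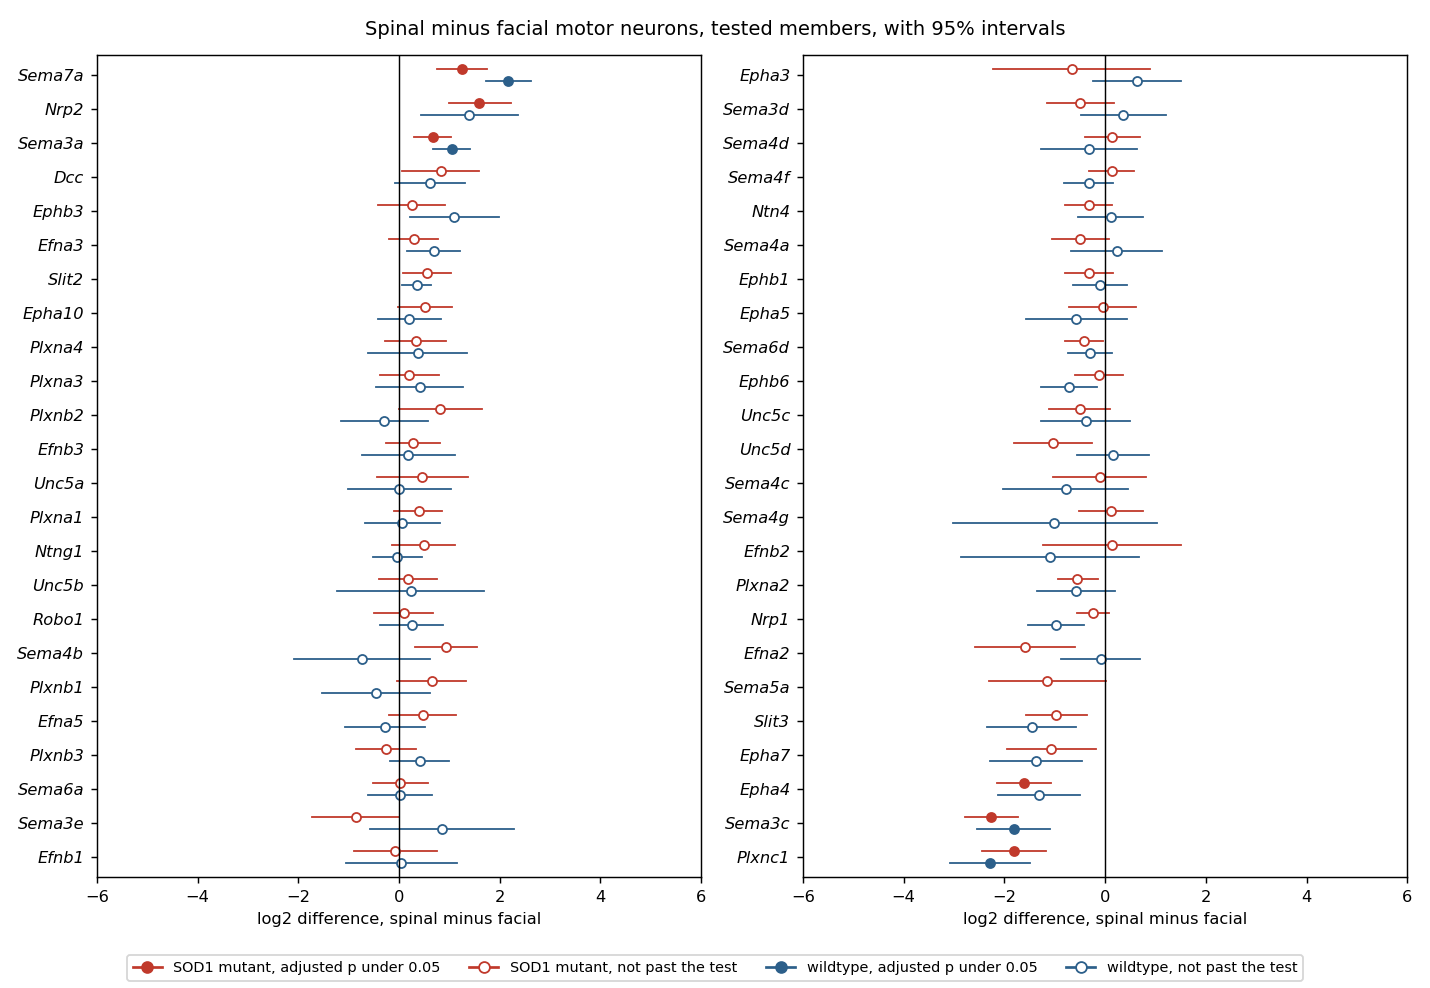
Log2 difference of spinal minus facial motor neurons for each guidance gene that was tested, with 95% intervals from limma; SOD1 mutant in red above wildtype in blue, filled where the adjusted p was under 0.05. Sema7a and Sema3a are filled on the higher side and Sema3c and Plxnc1 on the lower side in both genotypes.

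The wildtype calls changed with single samples and with the actin covariate. The count was 6, 6 and 2 without wildtype spinal array 1, 2 and 3 and 3, 1 and 1 without wildtype facial array 1, 2 and 3, and Sema7a passed in each of these 6 fits. With the actin ratio as a covariate 0 genes passed in wildtype mice, where Sema7a had an adjusted p of 0.121, and the same 6 genes passed in SOD1 mice. The wildtype Sema3c difference was -0.87 with this covariate. The ratio ran from 40.9 to 56.9 in wildtype spinal and from 59.7 to 74.4 in wildtype facial neurons. Without overlap, it cannot be told apart from the site there. In SOD1 mice the ranges overlapped, 25.3 to 39.1 in spinal and 26.6 to 59 in facial neurons. Without the mean-variance trend, Sema7a (adjusted p = 0.07) and Nrp2 (adjusted p = 0.0675) missed the threshold in SOD1 mice, as did Sema3a there and Sema3c in wildtype mice. Interneuron markers moved with the comparison: of 7 tested, 3 were higher past the test in SOD1 spinal neurons (median difference 2.20) and 5 in wildtype spinal neurons (median 2.88). The mean level of the 8 listed interneuron genes was 12.04, 13.52 and 9.81 in SOD1 spinal neurons and 9.54, 9.11 and 9.02 in SOD1 facial neurons, and 12.04, 11.93 and 10.96 in wildtype spinal neurons and 9.78, 8.74 and 9.18 in wildtype facial neurons. Their summed intensity was 76400 to 189000 in SOD1 spinal and 6770 to 9050 in SOD1 facial neurons, and 63200 to 90800 in wildtype spinal and 3790 to 7560 in wildtype facial neurons. Calb2 weighs heavily in these sums, being the brightest of the genes on every spinal neuron array. It was at 15.86, 15.88 and 15.93 in SOD1 spinal neurons, above SOD1 tissue at 14.93 to 15.07. In wildtype spinal neurons it was at 14.89, 15.82 and 15.10, overlapping wildtype tissue at 15.11 to 15.31. Gad2 was close to background in all 4 neuron groups, and Gad1 and Calb1 in both facial groups. SOD1 spinal array 3, whose interneuron mean of 9.81 was near the facial arrays, had 14.31 of Sema7a, 9.07 of Plxnc1, 13.86 of Sema3a and 11.51 of Sema3c. Its interneuron genes were spread widely, with Calb2 at 15.93 and Calb1 at 5.53. The SOD1 facial arrays had 9.11 to 10.30 of Calb2 and 7.87 to 7.99 of Calb1. Microglia genes were higher past the test in SOD1 spinal neurons for 8 of 9 tested (median 1.94). In wildtype mice 0 of 8 passed (median -0.07), with 4 higher and 4 lower. Past the test, 2 astrocyte genes were higher in spinal neurons of each genotype. Mural and fibroblast genes had a median of -1.25 in SOD1 mice (3 of 4 tested lower in spinal neurons, 1 past the test) and -1.48 in wildtype mice (5 of 6 lower, 1 past the test), and their mean level ran from 8.96 to 9.18 in SOD1 spinal and 9.29 to 10.56 in SOD1 facial neurons, and from 8.79 to 9.64 in wildtype spinal neurons against 8.75, 11.70 and 11.35 in wildtype facial neurons. The part of interneurons, microglia, astrocytes and mural cells in the guidance gene calls was not tested.

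Among the further cues and receptors, 1 rose and 3 fell past the test in SOD1 spinal neurons of 24 tested, and 0 rose and 3 fell in wildtype spinal neurons of 23 tested. Of all tested genes 7.3% passed in SOD1 mice and 3.97% in wildtype mice. Wnt5a, a guidance cue of the Wnt family, fell by 2.14 in SOD1 spinal neurons (adjusted p = 0.00166), and Nfasc, an adhesion molecule of the axon initial segment, rose by 0.75 (adjusted p = 0.0168). The 3 lower in wildtype spinal neurons were the adhesion molecules Chl1 (-1.20, adjusted p = 0.028) and Cntn1 (-1.10, adjusted p = 0.04) and the netrin and RGM receptor Neo1 (-0.89, adjusted p = 0.024). Of 46 tested effectors, 2 rose (Vav3 and Cfl1) and 2 fell (Chn2 and Pak3) past the test in SOD1 mice and 0 passed in wildtype mice.

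The genotype comparisons ask whether guidance genes differ between SOD1 mutant and wildtype samples within each kind of sample. None passed the test in limma: 0 of 46 in spinal neurons (smallest adjusted p 0.437), 0 of 49 in facial neurons (0.204) and 0 of 53 in tissue (0.438). Of all tested genes 0.0641% passed in spinal neurons, 0% in facial neurons and 0.623% in tissue. At an unadjusted p under 0.05 there were 7 guidance genes in spinal neurons, 5 in facial neurons and 3 in tissue. Of all 10916 tested genes, 1036 were under it in spinal neurons, 1949 in facial neurons and 1082 in tissue. SOD1 and wildtype arrays did not overlap for 9 of the 46 genes in spinal neurons, 6 of the 49 in facial neurons and 10 of the 53 in tissue, against 14.3%, 24.1% and 15.7% of all tested genes. The median difference of the guidance genes was 0.28 in spinal neurons (30 above 0 and 16 below), 0.19 in facial neurons (33 and 16) and 0.00 in tissue, against 0.01, 0.02 and -0.01 for all genes.

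**Figure D5:**
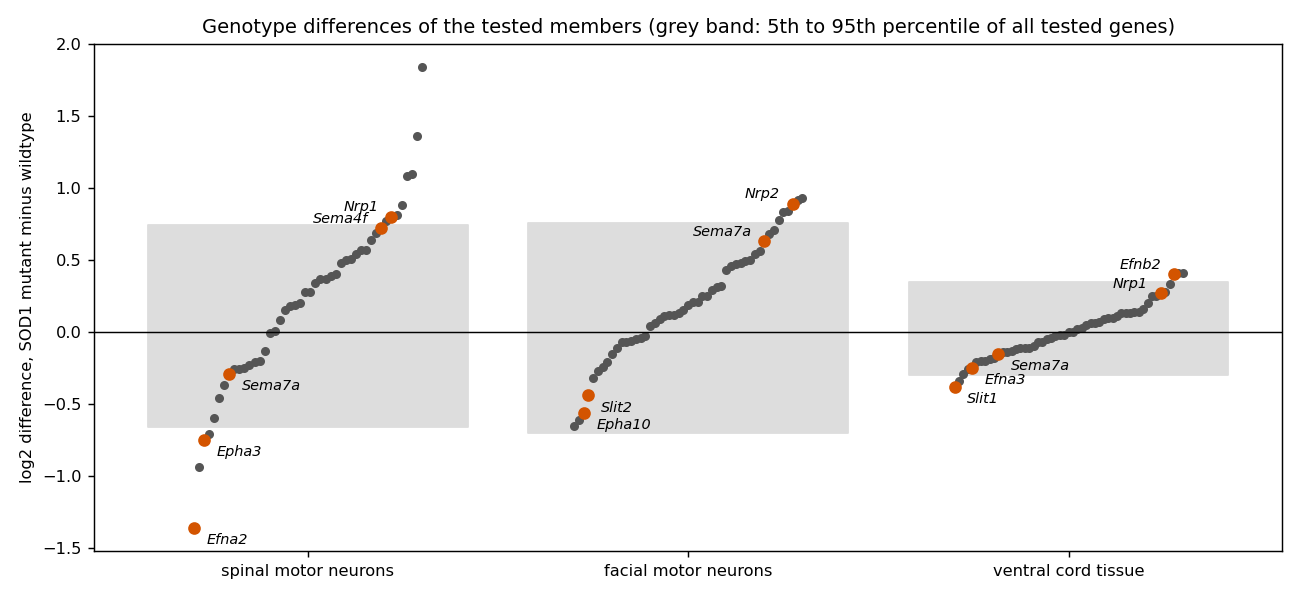
Log2 difference of SOD1 mutant minus wildtype for each tested guidance gene, sorted within spinal motor neurons, facial motor neurons and ventral cord tissue; grey bands run from the 5th to the 95th percentile of all tested genes, and orange points carry the names used in the text. The guidance genes ran from -1.36 to 1.84 in spinal neurons, from -0.65 to 0.93 in facial neurons and from -0.38 to 0.41 in tissue.

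In spinal neurons, the guidance genes of smallest p were Sema4f and Nrp1 on the higher side. Nrp1 was at 13.71, 13.54 and 13.45 in SOD1 spinal neurons and at 12.71, 13.28 and 12.30 in wildtype spinal neurons (0.80, SE 0.25, adjusted p = 0.437). Sema4f was at 13.81, 13.81 and 13.45 in SOD1 spinal neurons and at 13.13, 13.22 and 12.56 in wildtype spinal neurons (0.72, SE 0.22, adjusted p = 0.437). Neither pair of groups overlapped, and neither difference passed. On the lower side Efna2, an ephrin-A ligand, had 9.64, 8.78 and 7.88 in SOD1 and 10.47, 9.62 and 10.28 in wildtype spinal neurons (-1.36, SE 0.52, adjusted p = 0.493), and Epha3 differed by -0.75 (adjusted p = 0.531). With the actin ratio as a covariate, which averaged 30.7 in SOD1 and 46.5 in wildtype spinal neurons, these values were -0.16 for Efna2 and -0.43 for Epha3. The ratio ran from 25.3 to 39.1 in SOD1 and from 40.9 to 56.9 in wildtype spinal neurons. Without overlap, it cannot be told apart from genotype here. Sema7a differed by -0.29 (SE 0.19, adjusted p = 0.609), with overlapping arrays.

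This count changed with wildtype spinal array 2 and with other settings. Without that array 5 guidance genes passed: Nrp1 (1.06, adjusted p = 0.0162), Sema4f (0.84, adjusted p = 0.0456), Nrp2, Plxna1 and Sema3c. The share of all tested genes past the test in that fit is not given here, so the 5 cannot be set against it. With that array kept, Nrp1 passed with all 18 arrays in one fit, and Nrp1 and Sema4f passed with array weights. With all arrays, 3 other Nrp1 probe sets above background gave 0.12, 0.48 and 0.25. For Nrp2, SOD1 spinal neurons ran from 13.60 to 14.05, wildtype spinal array 2 was at 13.79, and the other wildtype spinal arrays were at 11.78 and 12.53. For Plxna1, SOD1 spinal neurons ran from 11.54 to 11.57, wildtype spinal array 2 was at 11.42, and the other wildtype spinal arrays were at 10.35 and 10.44. The 9 tested microglia genes were all higher in SOD1 spinal neurons (2 past the test), with a summed intensity of 70200 to 93400 in SOD1 and 11100 to 28300 in wildtype spinal neurons, and their part in the guidance gene values was not tested. Itgam, P2ry12 and Trem2 were close to background in both groups. Of 9 tested astrocyte genes, 7 were higher in SOD1 spinal neurons (1 past the test) and 2 lower, and their part was not tested either. Gfap, 1 of the astrocyte genes, ran from 13.65 to 14.34 in SOD1 and from 10.81 to 11.35 in wildtype spinal neurons.

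In facial neurons Nrp2 differed by 0.89 (SE 0.31, adjusted p = 0.204) and Sema7a by 0.63 (SE 0.25, adjusted p = 0.232). The arrays of both genes overlapped between genotypes, SOD1 facial array 2 having the lowest SOD1 level of each, and without that array Nrp2 passed. With the actin ratio as a covariate the differences were 0.00 for Nrp2 and -0.06 for Sema7a, and other Nrp2 probe sets above background gave 0.43 and -0.26. The ratio ran from 26.6 to 59 in SOD1 and from 59.7 to 74.4 in wildtype facial neurons. It therefore cannot be told apart from genotype here either. Epha10, an Eph receptor without an active kinase, differed by -0.56 (adjusted p = 0.258) and Slit2 by -0.44 (adjusted p = 0.309). In tissue the differences were small: Efnb2 0.40 (adjusted p = 0.447), Nrp1 0.27 (0.438), Sema7a -0.15 (0.663), Efna3 -0.25 (0.559) and Slit1 -0.38 (0.478). In the same tissue 7 of 12 microglia genes and 1 of 10 astrocyte genes rose past the test in SOD1 mice.

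Differences between genotype effects were tested as interactions over 12 arrays. For spinal neurons against tissue 0 of 50 guidance genes passed (smallest adjusted p 0.514, 9 at an unadjusted p under 0.05), where 0.055% of all genes did. For spinal against facial neurons 0 of 47 passed (0.469, 6 unadjusted), where 0% of all genes did. Of all 10916 tested genes, 965 were at an unadjusted p under 0.05 in the interaction with tissue and 986 in that with facial neurons. Sema7a was the guidance gene of smallest p between spinal and facial neurons, at -0.92 (95% interval -1.62 to -0.22, adjusted p = 0.469): the genotype difference was -0.29 in spinal and 0.63 in facial neurons. Efna2 differed by -1.50 (adjusted p = 0.509), Sema4b by 1.68 (adjusted p = 0.514) and Nrp1 by 0.74 (adjusted p = 0.501). Against tissue, the values were -1.69 for Efna2 (adjusted p = 0.514), -1.07 for Epha3 (adjusted p = 0.53), 0.95 for Plxna1 (adjusted p = 0.524), 0.66 for Sema4f (adjusted p = 0.524) and -0.14 for Sema7a (adjusted p = 0.834). Without wildtype spinal array 2, 5 genes passed in the comparison with tissue, Nrp1, Nrp2, Plxna1, Sema3c and Unc5b. The share of all tested genes past the test in that fit is not given here either. None of the further cues, receptors and effectors passed in any genotype comparison.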

How the data were processed

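The authors deposited 1 table of linear intensities for 45101 probe sets on 18 arrays. How the scanner images became intensities is not given in the sources used here. The trimmed mean was 2500 on every array, so arrays had been scaled to one target, while the median intensity was 286 to 341 on neuron arrays and 533 to 583 on tissue arrays. Intensities were turned into log2(intensity + 16) and quantile normalised over the 18 arrays with limma 3.58.1 in R 4.3.3. On this scale the changes of dim genes come out too small. Gene symbols came from the platform's annotation: 34958 probe sets had 1 symbol, and the 932 with several and 9211 with none were not used. The 70 guidance genes had 157 probe sets. Values of further probe sets close to background are given for some genes only. In each fit genes under the 40th percentile were left out, 10916 were tested, and limma's lmFit and eBayes (with a trend of the variance on the mean) were run on the arrays of the groups compared, with Benjamini-Hochberg adjustment at 0.05. Precision is limited by the 3 arrays per group. No 2 arrays were identical.

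Named are Sema7a, the guidance genes past the threshold (where over 30 passed, the 10 of largest difference per direction among those with separate arrays), a fill to 2 per direction by smallest p, and the 3 further pathway genes of smallest p per direction. Of those 3, some are left out of the text, and other guidance genes are named only with counts or single differences. The members and all gene lists were chosen with earlier results of these data known. In simulated data with known changes, a log2 change of 2 was recovered for 85.9% of genes in the wildtype neuron and tissue comparison, 74% in the wildtype spinal and facial comparison and 81% in the spinal genotype comparison, and a change of 1 for 42%, 23% and 44%, with 10916 genes in each. Each change was given to 100 genes with means above the median, and all remaining genes were unchanged. In the real wildtype neuron and tissue fit 58.7% of genes passed. These rates therefore do not describe that comparison, nor guidance genes closer to background. Alternatives were other scalings, pseudocounts and filters, every probe set, no trend, one fit over all arrays, array weights, a replicate block, the actin ratio as a covariate and each array left out.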

Additional observations from a re-analysis of the deposited data

How the results depend on the processing

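Of the alternative counts, 167 were within 1.5 times of the count reported, 9 were higher and 7 lower. For single named genes, 1483 alternative values kept direction and side of the threshold, 75 lost the threshold, 8 newly passed it and 3 changed sign. A filter at the 60th percentile left 18 genes past the test between SOD1 spinal neurons and tissue and 15 in wildtype mice, with 21 and 20 genes tested. Between wildtype spinal and facial neurons the count was 12 with all 18 arrays in one fit, 19 with array weights, 0 with the actin ratio as a covariate and 1 to 6 with an array left out, and in SOD1 mice 3 without the trend and 5 to 7 with an array left out. With an array left out, the neuron and tissue counts ran from 34 to 40 in SOD1 mice and from 23 to 32 in wildtype mice. The spinal genotype count was 1 with all arrays (Nrp1), 2 with array weights (Nrp1 and Sema4f) and 0 to 5 with an array left out. The facial genotype count was 1 with array weights (Nrp2) and 0 to 1 with an array left out. The interaction with tissue gave 1 with array weights (Slit1) and 0 to 5 with an array left out. Sema7a changed sign in the facial genotype comparison with the actin ratio as a covariate (-0.06) and in the interaction with tissue with array weights (0.06) and without wildtype spinal array 2 (0.02; -0.25 to 0.02 with an array left out). None of these differences had passed, and the cause was not tested. The actin covariate was not run between neurons and tissue, where it coincides with the groups. Its range also did not overlap between wildtype spinal and facial neurons, nor between genotypes in either kind of neuron. The fits with it there cannot separate the ratio from the groups. Leaving out both replicate 1 wildtype neuron arrays gave 6 between wildtype spinal and facial neurons.

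Replicate numbers gave no pairing: same-numbered arrays of the groups compared correlated between -0.07 and 0.30 in their deviations from the group means. In the spinal and the facial genotype comparisons every array correlated best with its own number, a hint from the data and not from the design. With the replicate number as a block the counts were 37 and 30 between neurons and tissue in SOD1 and wildtype mice, 6 and 4 between spinal and facial neurons, and 0 in each genotype comparison and interaction. Sema3a between SOD1 spinal and facial neurons and Efna2 between wildtype neurons and tissue missed the threshold with the block.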
